A study of Mus musculus with 16 samples.

Results

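Genes that mark the epithelium of the choroid plexus were followed on expression arrays of the mouse brain. The list held 8 genes, Ttr, Kl, Folr1, Clic6, Aqp1, Otx2, Slc4a5 and Prlr, and every probe set (a group of short probes that reads 1 transcript) was taken whose only gene symbol in the platform annotation was one of these. This gave 12 probe sets of 7 genes, out of 45101 probe sets and 18194 named genes in the whole series. Prlr, the prolactin receptor, has no such probe set in the annotation used and was not analysed here.

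The choroid plexus hangs into the brain ventricles as a fringe of vessels covered by a sheet of cuboidal epithelial cells. These cells secrete cerebrospinal fluid, seal the blood from it with tight junctions, and carry hormones, vitamins and ions across. One plexus lies in each lateral ventricle, a further one in the third ventricle and one in the fourth ventricle, whose roof lies under the cerebellum.

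The mice were wild type (WT) or KO. KO mice were homozygous for a 4-bp deletion that spares the remainder of the transcript, made with CRISPR/Cas9 in C57BL/6J embryos, in the SINE exon of a brain isoform of Ppargc1a, the gene of the transcriptional coactivator PGC1α, and came from 1 founder line. All brains, WT and KO alike, had been cleaned of brain stem by hand and split into cerebellum (cb) and everything else (rest of brain, Br). Females and males of each genotype gave 2 arrays per brain part, so there were 16 arrays in 8 groups of 2, with 8 arrays for each brain part. The age of the mice is not stated in the sources used here, nor do the labels say whether cb and Br arrays of the same number came from 1 animal.

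The deposited values are detection levels and not intensities. They take 5 values, and a level of 2 was read as detected, 1 as marginal and 0, -1 or -2 as not detected, a reading that no source used here states. Actb, Gapdh and all 5 probe sets of Ppargc1a were at level 2 on all 16 arrays, so the targeted gene checks no genotype label. A call says that a transcript was seen and not how much of it there was. Each array had from 25517 to 28155 probe sets detected, and replicates of 1 group differed in their call on 2696 to 3586 probe sets. The array of WT cb female replicate 2 stood apart from the other cb arrays: it had 13 of 19 granule cell probe sets detected against 17 to 19 on the others, and it was the 1 cb array with both probe sets of the striatal gene Drd1. KO cb male replicate 2 had the lowest total of all arrays, 25517. Calls at an unadjusted p that these 2 arrays change are given below with and without them.

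In the Br arrays the plexus genes were detected with little variation, and in the cb arrays they were not. Of the 12 probe sets, 10 were detected on 7 of the 8 Br arrays and 9 on WT Br female replicate 2. In the cerebellum 11 were detected on WT female replicate 1, 7 on WT female replicate 2, 11 on KO female replicate 1 and 9 on KO female replicate 2. The male cb arrays had 9 on WT replicate 1, 7 on WT replicate 2, 7 on KO replicate 1 and 6 on KO replicate 2. Both cb arrays at 11 were above every Br array, and the 6 cb arrays at 6 to 9 were at or below the lowest Br array. With marginal calls counted as detected, WT Br male replicate 1 and KO Br male replicate 2 stood at 11 too. KO cb female replicate 2 and WT cb male replicate 1 then stood at 10. The mean was 8.38 ± 1.92 in cb and 9.88 ± 0.354 in Br (SD, n = 8 arrays each), so the spread over arrays was larger in cb. These counts are a description and were not tested, since the genes were chosen with earlier results of the data known. In pieces of tissue such as these, fewer plexus cells and less RNA per cell cannot be told apart.

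**Figure D1:**
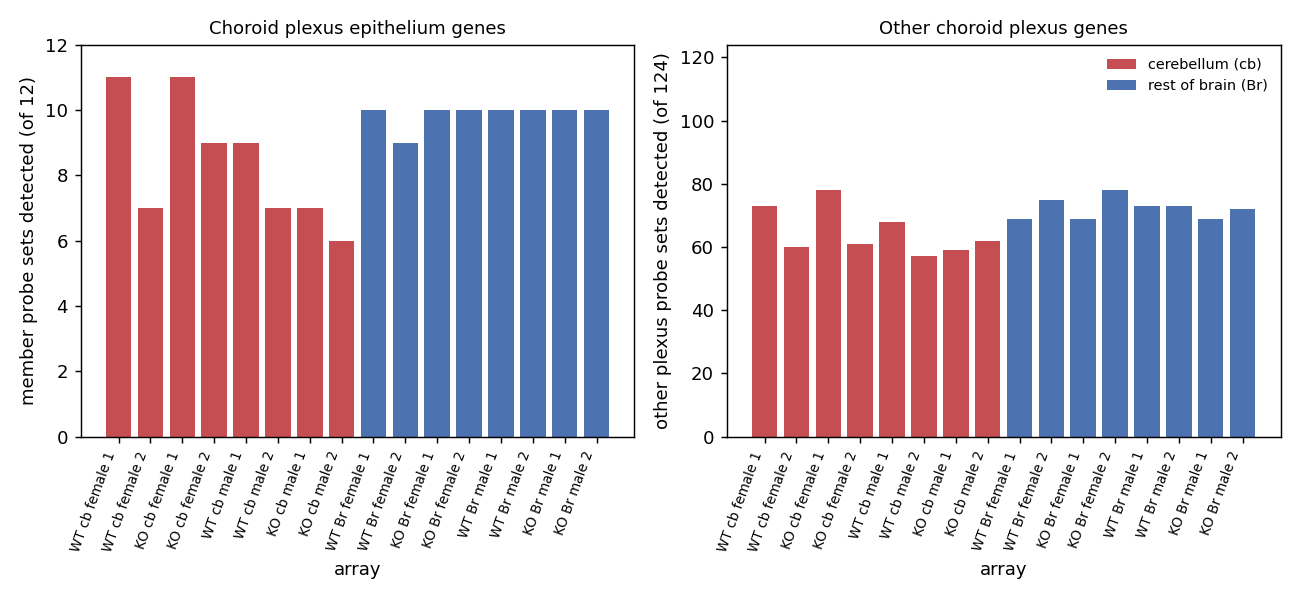
Number of probe sets detected (vertical axis) on each of the 16 arrays (horizontal axis; red bars cb, blue bars Br), on the left for the 12 probe sets of the choroid plexus epithelium genes and on the right for 124 probe sets of other choroid plexus genes. The 2 highest cb arrays in both panels are WT cb female replicate 1 and KO cb female replicate 1, and the lowest value of the left panel is 6, on KO cb male replicate 2.

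Transthyretin, encoded by Ttr, is the main protein that the plexus secretes and carries thyroxine and retinol-binding protein in the cerebrospinal fluid. Ttr has 4 probe sets, and 3 of them (1454608_x_at, 1455913_x_at and 1459737_s_at) were detected on all 16 arrays. The fourth, 1451580_a_at, was detected on all 8 Br arrays and on 4 of 8 cb arrays, namely WT female replicate 1, both KO female replicates and WT male replicate 1. It was at level 0 on the other 4 cb arrays, WT female replicate 2, WT male replicate 2 and both KO male replicates. The difference between the brain parts was 50% against 100% of arrays (Fisher's exact test, two-sided, p = 0.0769, Benjamini-Hochberg adjusted p = 1). For a probe set detected on 12 of 16 arrays this is the widest gap possible, so the test could not reach a p under 0.05. The probe sets of this 1 gene thus gave different calls on the same cb arrays, 3 of them placing Ttr RNA on every array. Suffixes of such probe sets say that the probes of 1451580_a_at can read several transcripts of 1 gene, while those marked x or s may also bind other sequences.

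Klotho, encoded by Kl, is a membrane protein of the plexus and kidney that serves as a co-receptor for the hormone FGF23 and is also shed into the fluid. The probe set 1423400_at was detected on all 8 Br and 4 of 8 cb arrays (Fisher's exact test, p = 0.0769, again the lowest possible, adjusted p = 1). These were the same 4 cb arrays that had Ttr 1451580_a_at, so the pair had equal calls on 16 of 16 arrays. Kl was marginal on WT cb female replicate 2 and at level 0 on WT cb male replicate 2 and both KO cb male replicates. With marginal calls counted as detected it stood at 5 of 8 cb arrays (Fisher's exact test, p = 0.2). The other Kl probe set, 1451892_at, was detected on none of the 16 arrays, and on 5 of them it had a level below 0.

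Aquaporin 1, encoded by Aqp1, is the water channel of the surface that faces the ventricle. Its only probe set, 1416203_at, was detected on all 8 Br arrays and on 3 of 8 cb arrays, WT female replicate 1 and both KO female replicates. It was marginal on WT cb male replicate 1 and at level 0 on WT cb female replicate 2, WT cb male replicate 2 and both KO cb male replicates. At 37.5% of cb arrays against 100% of Br arrays, Aqp1 had the widest gap of the list (Fisher's exact test, p = 0.0256, adjusted p = 1 over all 45101 probe sets). Restricting the adjustment to the 3873 probe sets that could reach an unadjusted p under 0.05 gave an adjusted p of 0.0944 for Aqp1 by the same exact test. With marginal calls counted as detected, the gap was 4 against 8 arrays (Fisher's exact test, p = 0.0769), and without both doubtful cb arrays the exact p was 0.0549.

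The starts of the Kl and Aqp1 genes are shown because these were the members with the widest gaps between the brain parts that have an entry in the promoter table used, which holds 4 of the 7 genes measured. Each runs from 250 bases before to 50 after the RefSeq start (mouse build GRCm38.p6), 5′ to 3′ on the strand of the gene. Kl lies at chr5:150952357-150952656 and Aqp1 at chr6:55336049-55336348, both on the plus strand. Capitals mark the GC box GGGCGG on either strand (CCGCCC).
Kl: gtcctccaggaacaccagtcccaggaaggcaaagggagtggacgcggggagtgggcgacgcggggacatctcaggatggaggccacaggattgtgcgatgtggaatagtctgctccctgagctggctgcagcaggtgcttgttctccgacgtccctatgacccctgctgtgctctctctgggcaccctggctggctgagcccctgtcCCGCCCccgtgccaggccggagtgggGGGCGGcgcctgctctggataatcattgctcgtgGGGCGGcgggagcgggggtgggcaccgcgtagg
Aqp1: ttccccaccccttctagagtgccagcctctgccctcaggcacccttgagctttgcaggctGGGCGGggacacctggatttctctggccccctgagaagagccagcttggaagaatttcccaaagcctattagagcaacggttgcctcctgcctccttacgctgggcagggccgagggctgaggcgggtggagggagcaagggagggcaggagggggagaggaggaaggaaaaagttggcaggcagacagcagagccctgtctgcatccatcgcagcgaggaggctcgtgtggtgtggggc
The GC box occurs 3 times in the Kl window and 1 time in that of Aqp1, and 35.7% of the 32851 promoters of the table hold at least 1. GC content was 67.3% for Kl and 62.7% for Aqp1, against a median of 52.7% over the table, and the windows hold 19 and 8 CG dinucleotides against a median of 7. Neither holds the letters TAATCC or GGATTA, the core bound by OTX proteins, which 7.06% of promoters hold, nor TATAAA or TTTATA, which 13.6% hold. These matches describe the letters only.

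Folate receptor α, encoded by Folr1, takes folate from blood through the plexus into the fluid. Its probe set 1450995_at was detected on all 8 Br arrays and on 6 of 8 cb arrays. It was marginal on KO cb female replicate 2 and at level 0 on KO cb male replicate 2 (Fisher's exact test between brain parts, p = 0.467, adjusted p = 1). Folr1 was therefore present on 3 cb arrays that lacked Ttr 1451580_a_at, Kl and Aqp1, namely WT female replicate 2, WT male replicate 2 and KO male replicate 1. Clic6, which encodes a chloride intracellular channel protein abundant in this epithelium, has 2 probe sets, 1434165_at and 1454866_s_at, and both were detected on all 16 arrays.

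Slc4a5, which encodes an electrogenic sodium bicarbonate cotransporter of the ventricular surface, was detected on few arrays. The probe set 1435420_at was detected on WT cb female replicate 1 and KO cb female replicate 1 and on no Br array, though it was marginal on WT Br male replicate 1 and KO Br male replicate 2 (Fisher's exact test, 2 of 8 against 0 of 8, p = 0.467, adjusted p = 1). With marginal calls counted as detected it stood at 2 of 8 in both brain parts. Its calls fell on the 2 cb arrays where every other plexus epithelium probe set except the silent Kl one was detected. Otx2, a homeobox transcription factor that specifies and maintains the plexus, was detected by 1425926_a_at on all 8 cb arrays and on 7 of 8 Br arrays, the exception being WT Br female replicate 2 at level 0 (Fisher's exact test, p = 1). Otx2 is not particular to the plexus, since retina and pineal gland make it too. In a list of genes of those organs, detected for 2.12 ± 0.835 of 15 probe sets in cb and 1.12 ± 0.835 in Br (SD, n = 8 arrays each), 9 probe sets were detected on no array, those of Aanat and Tph1, enzymes on the way from tryptophan to melatonin, among them. Crx, a photoreceptor and pineal transcription factor, had 1 of 2 probe sets detected, on 0 of 8 cb and 2 of 8 Br arrays. Rom1, a photoreceptor membrane protein, went the other way at 8 cb and 4 Br arrays (Fisher's exact test, p = 0.0769, adjusted p = 1), as did 1 probe set each of Lrat (3 and 0), Gngt1 (3 and 1) and Opn1sw (1 and 0).

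**Figure D2:**
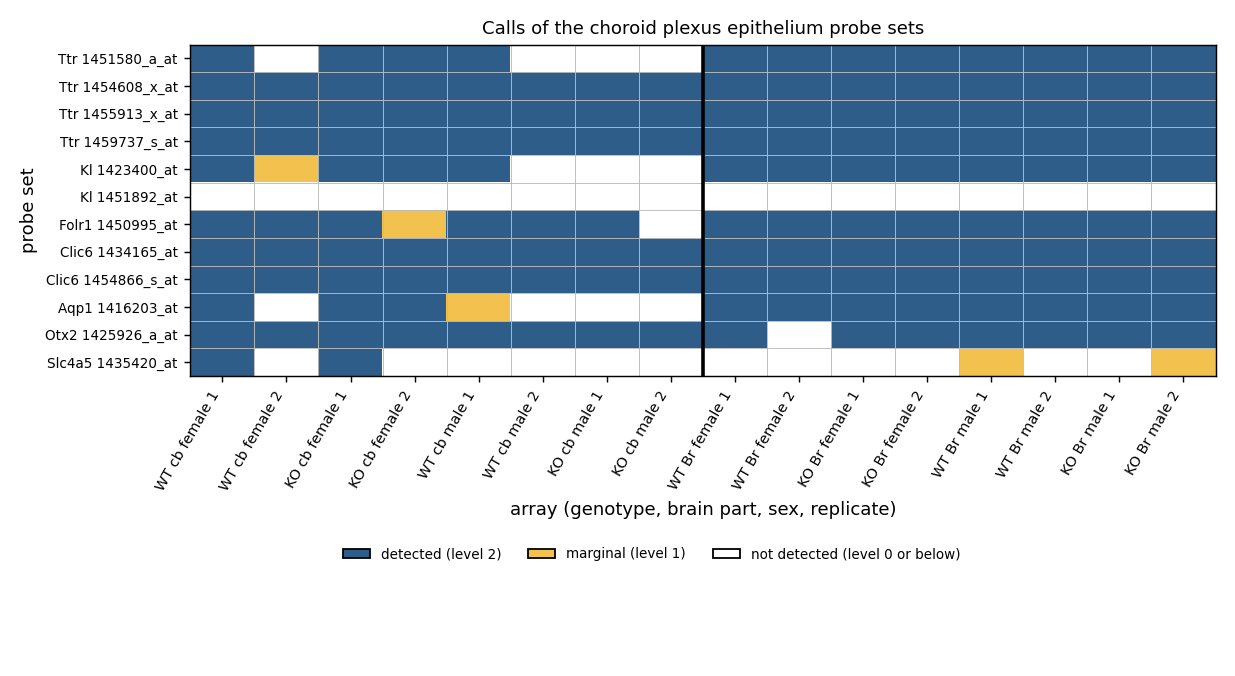
Call of each of the 12 probe sets (rows) on each of the 16 arrays (columns, cb to the left of the black line and Br to its right); blue is detected, yellow marginal and white not detected. Ttr 1451580_a_at and Kl 1423400_at share 1 pattern, with the same 4 cb arrays and all 8 Br arrays detected, while Clic6 and 3 Ttr probe sets are detected on all 16.

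Read against all probe sets, 5 of the 12 (41.7%) were detected on all 16 arrays, beside 48% of the whole array. The probe sets of Ttr (1451580_a_at), Kl (1423400_at), Folr1 and Aqp1, were detected on fewer cb than Br arrays, 4 in all, which is 33.3% of the list beside 12.7% of all probe sets. Otx2 and Slc4a5 were detected on more cb arrays (16.7% beside 9.64%). Detection on all 8 Br arrays and on 5 or fewer cb arrays was found for Ttr 1451580_a_at, Kl 1423400_at and Aqp1, 3 of 12 (25%) beside 2.1% of all probe sets. This cut-off was not part of the planned tests. At an unadjusted p under 0.05, Aqp1 was lower in cb, 1 of 12 (8.33%) beside 1.73% of all probe sets, and no probe set of the list was higher, beside 1.04%. Given the number of arrays on which each was detected, only Aqp1 of the list could reach such a p. Over all probe sets the adjusted test called 0 (0% of 45101) while 1247 had an unadjusted p under 0.05. Even a complete switch between 8 cb and 8 Br arrays, at p = 0.000155 by Fisher's exact test, had an adjusted p of 0.0501. With the adjustment restricted as above, 11.5% of the 3873 were called lower in cb. Aqp1, the only plexus epithelium probe set in that run, was not among them. Over the 6 probe sets of the list detected on some arrays only, the median difference was -3 arrays (cb minus Br), beside -1 over all such probe sets. With 4 probe sets behind the lower counts, of which Ttr and Kl share 1 pattern, these shares are a description of the list.

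The plexus calls of the cb arrays are set here beside those of all probe sets picked in the same way. Of all 2075 probe sets detected on all 8 Br arrays and on 1 to 7 cb arrays, 73% were detected on WT cb female replicate 1, 76% on WT cb female replicate 2, 75.8% on KO cb female replicate 1 and 73.5% on KO cb female replicate 2. On the male cb arrays the share was 68.6% and 69.1% for WT and 61.4% and 43.7% for KO. The 4 plexus epithelium probe sets of this kind were all detected on WT female replicate 1 and KO female replicate 1, 3 of them (75%) on KO female replicate 2 and WT male replicate 1, 1 of them (25%) on WT female replicate 2, WT male replicate 2 and KO male replicate 1, and 0 on KO male replicate 2. WT cb female replicate 2 was thus the highest array over all such probe sets and among the low ones for the plexus genes, and KO cb male replicate 2 was the lowest in both. The 2075 and the 4 were all picked by detection on all Br arrays, and Ttr and Kl among the 4 share 1 pattern. These shares are a description and were not tested. WT cb female replicate 2 also had the most forebrain (8 of 13) and hypothalamus (6 of 12) probe sets of the cb arrays. Over the whole array it had 59.3% detected, within the cb range of 56.6% to 60.9%. The part of the region markers in its 76% was not tested.

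**Figure D3:**
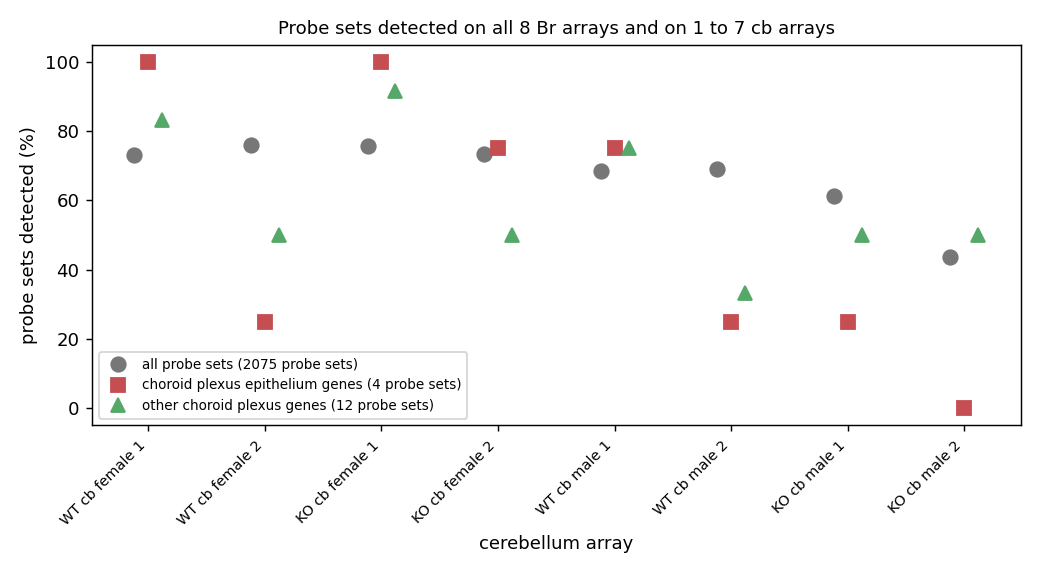
Share of probe sets detected on each of the 8 cb arrays (vertical axis, %), among probe sets detected on all 8 Br arrays and on 1 to 7 cb arrays: grey circles all 2075, red squares the 4 of the choroid plexus epithelium genes, green triangles 12 of other choroid plexus genes. The red squares run from 100% on WT cb female replicate 1 and KO cb female replicate 1 to 0% on KO cb male replicate 2. On WT cb female replicate 2 the red square is at 25% and the grey circle at 76%.

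Likeness of pattern was measured as the number of arrays, out of 16, with an equal call. Ttr 1451580_a_at had 5 other probe sets with 16 equal calls, Kl among them, and 76 with at least 15. The remaining single-gene probe sets with 16 equal calls were those of Apbb2, Entr1 and Slc39a6, and the next by alphabet, with 15, was Adar. Aqp1 had no probe set with 16 equal calls and 52 with at least 15, the first by alphabet being 2900052N01Rik, Agbl4, Aldh1a7, Apbb2 and B230216N24Rik. Among 189 probe sets detected on all 8 Br arrays and on exactly 4 cb arrays, 6 had the 4 arrays of Ttr and Kl. These 6 include the probe sets of Ttr and Kl, from which the pattern was taken. The median was 2 over the 56 sets of 4 arrays that occurred, out of 70 possible, and the maximum was 34. These numbers are a description. The pattern that Ttr and Kl shared was thus also that of genes outside the choroid plexus lists.

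The study compared KO with WT within each brain part and each sex. Here the 4 KO and 4 WT arrays of a brain part were tested with both sexes pooled. Differences that run opposite ways in females and males could cancel in such a test. In cb, Ttr 1451580_a_at and Kl were each detected on 2 of 4 KO and 2 of 4 WT arrays (Fisher's exact test, p = 1). Folr1 was detected on 2 of 4 KO and 4 of 4 WT arrays (Fisher's exact test, p = 0.429, adjusted p = 1), and Aqp1 on 2 of 4 KO and 1 of 4 WT arrays (Fisher's exact test, p = 1). Slc4a5 stood at 1 of 4 in each genotype. None of the 12 probe sets had an unadjusted p under 0.05, beside 0.0377% of all probe sets in this comparison (17, with 0 after adjustment by Fisher's exact test). A test of 4 against 4 arrays passes only for a complete switch, at p = 0.0286 by Fisher's exact test, so smaller differences were not detectable. In Br the list was detected alike in both genotypes except for Otx2, on 4 of 4 KO and 3 of 4 WT arrays.

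Between the sexes, Aqp1 was detected on 3 of 4 female and 0 of 4 male cb arrays (Fisher's exact test, p = 0.143, adjusted p = 1). Ttr 1451580_a_at and Kl stood at 3 of 4 female and 1 of 4 male cb arrays (Fisher's exact test, p = 0.486 for each), and Slc4a5 at 2 of 4 and 0 of 4 (Fisher's exact test, p = 0.429). Folr1 stood at 3 of 4 in each sex. None passed an unadjusted p of 0.05, beside 0.235% of all probe sets (106, with 0 after adjustment by Fisher's exact test). Without WT cb female replicate 2, Aqp1 stood at 3 of 3 female against 0 of 4 male cb arrays (Fisher's exact test, p = 0.0286, adjusted p = 1), where 154 of all probe sets had an unadjusted p under 0.05. With marginal calls counted as detected, and all 8 cb arrays, its exact p was 0.486. Within females, both KO cb arrays and 1 of 2 WT cb arrays had Ttr 1451580_a_at, Kl and Aqp1, the WT array without them being replicate 2, which also stood apart in its region markers. Within males, 1 of 2 WT and 0 of 2 KO cb arrays had Ttr 1451580_a_at and Kl, and none had Aqp1. With 2 arrays a group the smallest exact p is 0.333, so these were not tested.

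A wider list of choroid plexus genes covered 124 probe sets of 58 genes out of 64 listed. It was detected for 64.8 ± 7.48 probe sets in cb and 72.2 ± 3.24 in Br (SD, n = 8 arrays each). The cb arrays had 73, 60, 78 and 61 in females (WT replicates 1 and 2, then KO replicates 1 and 2) and 68, 57, 59 and 62 in males in the same order, and the Br arrays 69 to 78. WT cb female replicate 1 and KO cb female replicate 1 were again the highest cb arrays, followed by WT cb male replicate 1. KO cb female replicate 2, which had Ttr 1451580_a_at, Kl and Aqp1, was at 61, close to arrays without them, so the order of the cb arrays was not the same for both lists. In all, 46 of these probe sets were detected on all 16 arrays (37.1%), 35 on none, 25 on fewer cb arrays (20.2%, beside 12.7% of all probe sets) and 13 on more (10.5%, beside 9.64%). By the same unplanned cut-off, detection on all 8 Br arrays and on 5 or fewer cb arrays was found for 8 (6.45%, beside 2.1%).

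Secreted proteins held 24 of these probe sets, of which 6 (25%) were detected on fewer and 1 (4.17%) on more cb arrays, beside 12.7% and 9.64% of all probe sets. Lbp, which binds bacterial lipopolysaccharide, was detected on 4 of 8 cb and 8 of 8 Br arrays, Sostdc1, a secreted BMP and WNT antagonist, on 5 and 8, and Wfdc2, a secreted protein with a whey acidic protein domain, on 2 and 6. Igf2, the growth factor, Igfbp2, which binds it, and Mdk, another growth factor, were detected on all 16. Lbp, Sostdc1 and Igf2 each have 1 more probe set, which was detected on none. None of the secreted group had an unadjusted p under 0.05.

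Channels and transporters held 44 probe sets, 8 (18.2%) detected on fewer and 4 (9.09%) on more cb arrays, against the same 12.7% and 9.64%. Kcne2, a potassium channel subunit of the ventricular surface, was detected on WT cb female replicate 1, KO cb female replicate 1 and WT cb male replicate 1 and on all 8 Br arrays (Fisher's exact test, p = 0.0256, adjusted p = 1). Slc22a8, an organic anion transporter, had 1 probe set (1435418_at) on 2 of 8 cb and 7 of 8 Br arrays (Fisher's exact test, p = 0.0406, adjusted p = 1) and another (1416966_at) on 7 and 8. Slc13a4, a sulfate transporter, stood at 5 and 8 arrays, and Kcnj13, the inward rectifier channel of the plexus, at all 16. Trpm3, a cation channel, had 6 probe sets that went different ways, with 1457927_at on 6 cb and 2 Br arrays, 1443723_at on 3 and 6, 1441966_at on 2 and 0, and 3 on all 16. Aqp1 and Kcne2 had thus the same counts of 3 and 8 arrays, though KO cb female replicate 2 had Aqp1 and not Kcne2, and WT cb male replicate 1 had Kcne2 and was marginal for Aqp1.

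Junction and cytoskeleton genes held 18 probe sets, 6 (33.3%) detected on fewer and 1 (5.56%) on more cb arrays, beside 12.7% and 9.64% of all. Cldn1, a claudin of tight junctions, had 1 probe set (1437932_a_at) on KO cb female replicate 2 and on all 8 Br arrays (Fisher's exact test, p = 0.0014, adjusted p = 0.161 over all probe sets and 0.0138 in the restricted run). Of its other probe sets, 1450014_at stood at 0 and 4 arrays, 1438851_x_at at 2 and 1, and 1438850_at at none, so that with all 4 joined Cldn1 was detected on 3 cb and 8 Br arrays (Fisher's exact test, p = 0.0256). Cldn2, the claudin of leaky epithelia, was detected by 1 of its 2 probe sets on KO cb female replicate 1 and on 6 Br arrays and by the other on none (Fisher's exact test, p = 0.0406, adjusted p = 1). The keratins of simple epithelia, Krt8 (1 of its 3 probe sets, the others being detected on none) and Krt18, stood at 0 cb and 3 Br arrays and at 1 and 3 arrays. Cdh1, the adhesion protein E-cadherin, was detected on all 16. Regulators and other genes held 38 probe sets, with 5 (13.2%) on fewer and 7 (18.4%) on more cb arrays, beside 12.7% and 9.64%. Calml4, a calmodulin-like protein, stood at 4 and 8, Cdkn1c, an inhibitor of the cell cycle, at 6 and 8, and Col9a3, a collagen chain, at 8 and 4 for 1 of its probe sets. Over the wider list 4 probe sets (3.23%, beside 1.73% of all) had an unadjusted p under 0.05 and were lower in cb, and 0 were higher (beside 1.04%).

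**Figure D4:**
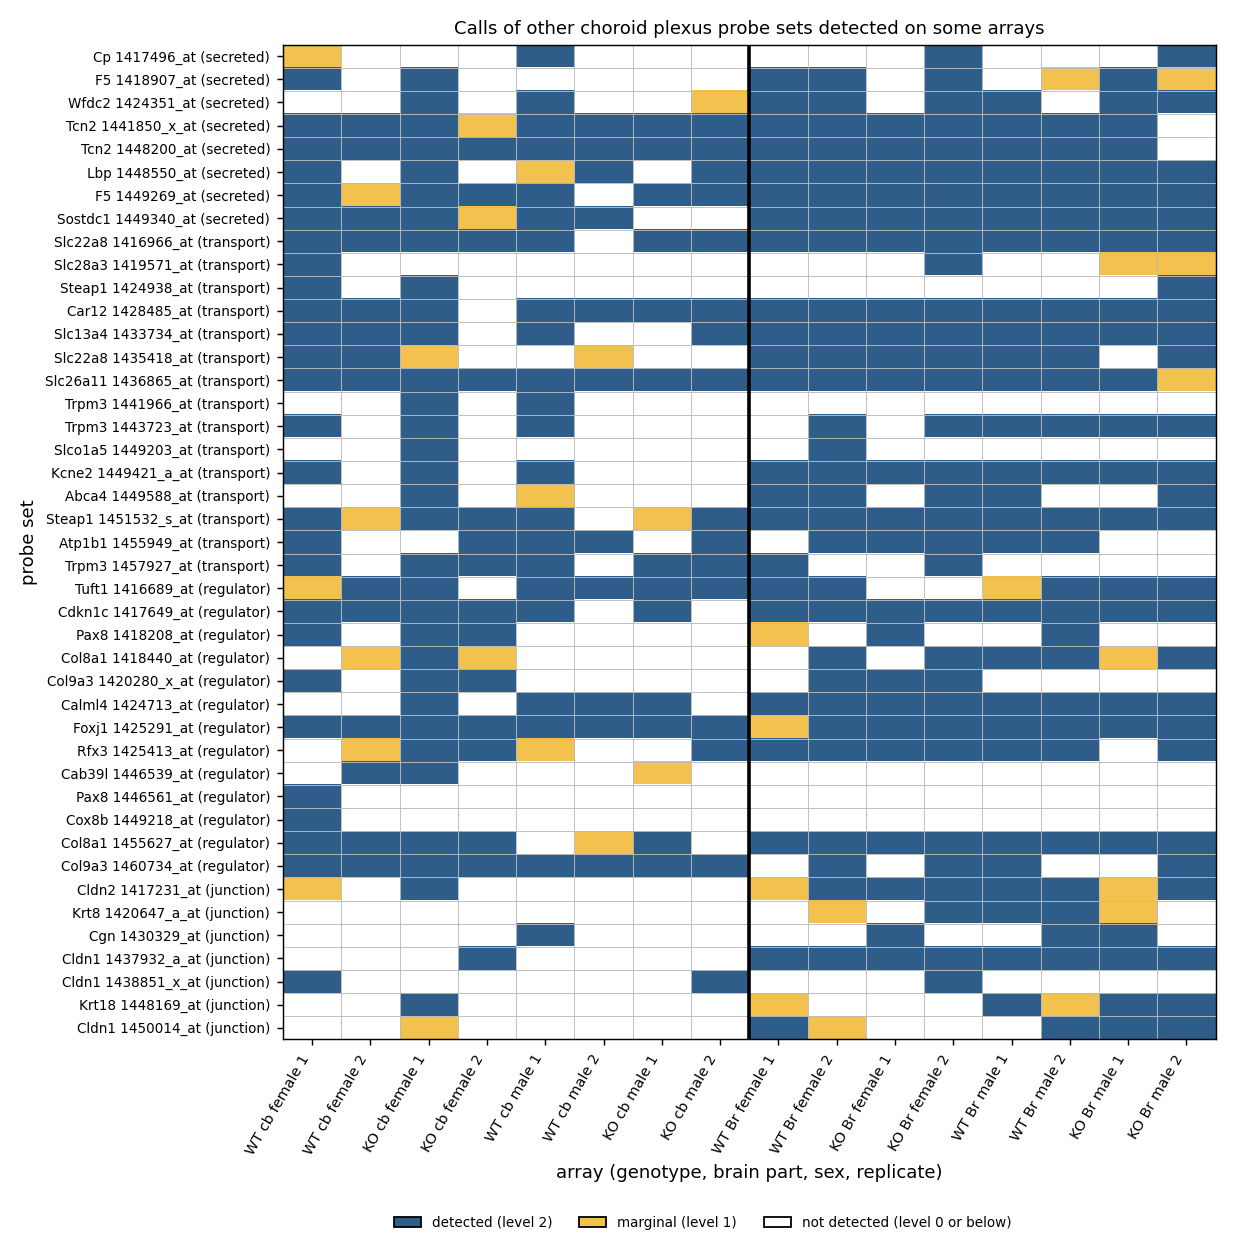
Calls of the 43 probe sets of other choroid plexus genes that were detected on some of the 16 arrays (rows, with their group; columns as arrays, cb to the left of the black line); blue is detected, yellow marginal and white not detected. Cldn1 1437932_a_at is detected on 1 cb and 8 Br arrays and Kcne2 on 3 and 8, while Col9a3 1460734_at runs the other way, with 8 and 4.

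Without WT cb female replicate 2, Aqp1 was still the 1 plexus epithelium probe set at an unadjusted p under 0.05 and 4 of the wider list were, beside 2.2% of all probe sets. Without KO cb male replicate 2 the numbers were 1 and 6, beside 1.88%. Without both arrays they were 0 and 2, with Slc22a8 and Cldn1 remaining, beside 1.63%. The count of plexus epithelium probe sets detected on fewer cb arrays was 4 in each case.

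Of the markers of neighbouring cells, those of ependyma had a lower mean in cb than in Br, and those of meninges and endothelium did not. Ependyma, the ciliated lining of the ventricles, had 6.38 ± 1.06 of 17 probe sets in cb and 8.25 ± 1.39 in Br (SD, n = 8 arrays each), with Spag6 on 1 and 8 arrays and Foxj1, which the plexus also expresses, on 8 and 7. On WT cb female replicate 1 and KO cb female replicate 1, the highest cb arrays for the plexus, ependyma stood at 41.2% and 29.4%. The cb range was 29.4% to 47.1%. Its lowest value was also that of KO cb male replicate 1, and its highest was on WT cb male replicate 2. Each of these male arrays had 7 of 12 plexus epithelium probe sets detected, so ependyma did not follow the plexus genes array by array. Meninges, the coverings of the brain, had 17.1 ± 0.835 of 24 in cb and 16.4 ± 1.51 in Br, Igf2 being on this list and on the plexus one. In that list 3 probe sets (12.5%) were detected on fewer and 4 (16.7%) on more cb arrays, beside 12.7% and 9.64% of all. The widest gap was that of Col1a2 1446326_at, on 7 cb and 1 Br arrays (Fisher's exact test, p = 0.0101, adjusted p = 0.59). Endothelium had 13.9 ± 0.354 of 16 in both brain parts. Forebrain markers stood at 5.62 ± 1.19 of 13 in cb and 10.4 ± 0.518 in Br, with Emx1 (1 of its 2 probe sets, the other on none) and Tbr1 on 0 and 8 arrays, and granule cell markers at 17.1 ± 1.81 of 19 and 11.5 ± 2.2, with Zic2 on 8 and 0. Purkinje cell markers stood at 18.6 ± 1.6 of 20 and 16.6 ± 1.85, and hypothalamus markers at 3.12 ± 1.46 of 12 and 6.25 ± 1.39, with Avp on 0 and 8. On WT cb female replicate 2 the forebrain list was the highest of the cb arrays, at 8 of 13, while the plexus epithelium list was at 7 of 12. The part of these markers in the calls of the plexus genes was not tested.

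**Figure D5:**
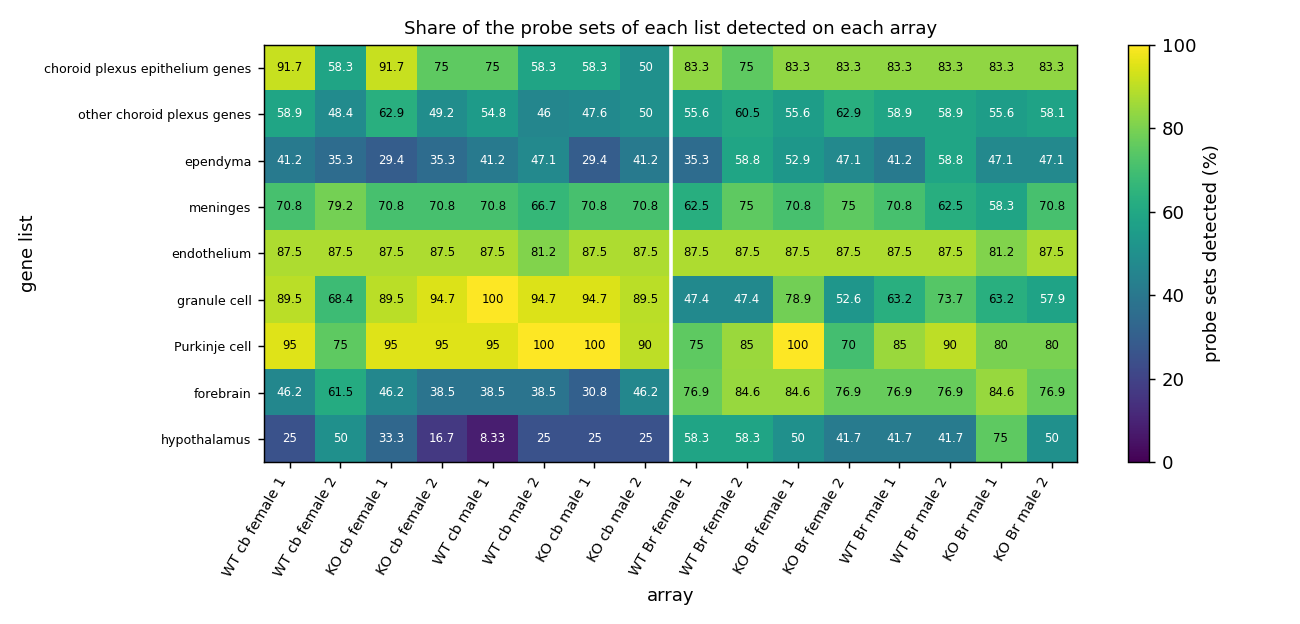
Share of the probe sets of each gene list (rows) detected on each of the 16 arrays (columns, cb to the left of the white line), printed in each cell in % and shaded on a scale from 0 to 100. The choroid plexus epithelium genes run from 50% to 91.7% in cb and from 75% to 83.3% in Br, while the endothelium stays at 81.2% to 87.5% on all arrays.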

How the data were processed

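Members and gene lists were chosen with earlier results of these data known. RNA of 16 specimens was labelled and hybridised to Affymetrix arrays. The methods name a human array, whereas the probe set names are of a mouse array. The methods name MAS5 for the output made from the scanned arrays, and the processing notes of the submitters name it too. The paper's own analysis of differential expression used RMA-normalized probe intensities. The deposited table holds 5 distinct numbers, unit not named, and no intensities. These numbers were sorted into detection levels by cut-offs on their value. Genes came from the platform annotation: 34958 probe sets had 1 symbol, 932 several and 9211 were unnamed here. A value above 5e-38 (level 2) was called detected. Two-sided Fisher's exact tests compared detected arrays per probe set, and p-values were adjusted by Benjamini-Hochberg over the 45101 probe sets and a call at an adjusted p under 0.05. A restricted run adjusted over probe sets that could reach an unadjusted p under 0.05. Named genes were all members, up to 6 genes per list with the largest difference between the brain parts, genes on every array of one brain part and none of the other, and up to 5 genes of like pattern (15 of 16 equal calls) for each member on 4 to 12 arrays. Igf2, Igfbp2, Mdk, Kcnj13 and Tph1, and further probe sets of Trpm3 and Cldn1, were added once calls were known. The methods describe 2 independent specimens per group, so p-values measure the spread between specimens. They also say that specimens were matched by litter where possible and that each brain was split into both parts. The main tests took all arrays as independent and used neither litter nor animal. Depth is unknown, and the number of arrays limits precision. Same-numbered arrays were checked for pairing and did not deviate together (correlations -0.02 to 0.06 over 12 pairs of groups). This check cannot tell whether they came from 1 animal. The test was checked on simulated calls. Software was scipy 1.17.1, pandas 2.3.3, numpy 2.4.6 and matplotlib 3.10.9 in Python 3.11.15. Promoters were from RefSeq.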

Additional observations from a re-analysis of the deposited data

Results flagged for a closer look

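Numbers of probe sets detected per array were screened for single arrays far from the other 7 of their brain part (Dixon's test, critical value 0.526), over 28 sets of 8 arrays, and 6 stood apart. The test's rate of about 1 in 20 by chance holds for continuous values and not for these small tied counts: where 7 arrays share 1 count, any other array stands apart, which was so for the plexus epithelium genes in Br and for endothelium in both brain parts. For the choroid plexus epithelium genes, WT Br female replicate 2 had 9 of 12 probe sets against 10 on every other Br array, the missing one being Otx2. WT cb female replicate 2 stood apart in 3 lists, with 19 meninges, 13 granule cell and 15 Purkinje cell probe sets. The endothelium list had 13 probe sets on WT cb male replicate 2 and 13 on KO Br male replicate 1, against 14 on the others.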

How the results depend on the processing

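The count of 0 probe sets called between the brain parts after adjustment over all of them was 662 in the restricted run and 61 when probe sets were joined by gene (437 genes with an unadjusted p under 0.05). Leaving out 1 array at a time gave 144 to 257 calls (1379 to 1600 unadjusted), the highest without WT cb female replicate 2, and no plexus epithelium probe set was among them. With all 16 arrays, a complete switch had an exact p of 0.000155 and an adjusted p of 0.0501, just above the threshold. The count of 0 thus included switches that missed it narrowly. Leaving out 1 array, the exact p of Aqp1 ran from 0.00699 to 0.0256 (adjusted 0.419 to 1) and those of Ttr 1451580_a_at and Kl from 0.0256 to 0.0769 (adjusted 0.901 to 1), the lowest without any 1 of the 4 cb arrays that detected them. The mean share of plexus epithelium probe sets detected, cb minus Br, was -12.5 percentage points and ran from -15.6 to -9.67. With the replicate number as a block, 0 probe sets were called, and the exact p was 0.0625 for Aqp1 and 0.125 for Ttr and Kl. Whether arrays of the same number came from 1 animal is not known. Permuting brain parts within sex and genotype gave an exact p of 0.0278 for Aqp1 and 0.0833 for Ttr and Kl. Without both WT cb female replicate 2 and KO cb male replicate 2, chosen after seeing the data, 0 were called and the exact p was 0.0549 for Aqp1 and 0.165 for Ttr and Kl. No direction turned, but some differences of plexus epithelium genes became 0: Slc4a5 between the brain parts and Aqp1 between KO and WT in cb with marginal calls counted as detected, and Otx2 (in each comparison where it differed) without WT Br female replicate 2. Differences of 0 in the cb genotype and sex comparisons took either sign when 1 array was left out. Without WT cb female replicate 2, Aqp1 between the sexes in cb reached an exact p of 0.0286 (adjusted p = 1). Calls hold no levels, and genes called alike can differ in amount.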
